A study of Mus musculus with 56 samples.

Results

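The response described here is that of mouse ras keratinocytes to 24 h of transforming growth factor β1 (TGF-β1). Keratinocytes are the main cell type of the epidermis. Those used here were isolated from newborn Balb/c mice, transduced on culture day 3 with a replication-defective retrovirus that carries Ha-ras, and treated with TGF-β1 at 1 ng/ml after 4 days of Ha-ras. Each array compared RNA of treated cells with RNA of untreated ras keratinocytes of the same strain, so the untreated side carried the oncogene too. The members are the 6 arrays labelled as ras cells at 24 h with treated RNA in the Cy5 dye, numbered 1, 2, 3, 5, 6 and 7, out of 56 arrays in all. The 7th array of the condition, replicate 4, had its dyes reversed and was used apart as a check of signs.

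Responses of 3 other Balb/c conditions were set beside these, each with treated RNA in Cy5, the same dose and its own untreated cells: primary keratinocytes without the ras virus at 24 h (6 arrays), ras keratinocytes at 6 h (7 arrays) and ras keratinocytes at 48 h (4 arrays). Ras arrays at 1 h and primary arrays at 1, 6 and 48 h, of the same strain, dose and dye orientation, share the fit and stand in the plot over time. Ras keratinocytes of C57B1/SVJ mice, Smad3 wild-type (1 array) or Smad3 knockout (2 arrays, 1 with dyes reversed), treated for 48 h, are given among the closing observations only. Values are log2 ratios, centred so that the median of every array is 0, with probes of the same gene averaged. A value of 1 is a doubling in treated over untreated cells and -1 a halving. Treated over untreated is the likely direction, since the labels list the untreated RNA as the first channel. It is borne out by Skil and Smad7, early targets of the pathway, whose medians were 1.19 and 1.14 on the ras arrays at 1 h. A ratio holds no level, so neither the identity of the cells nor the expression of the transgene could be read from these values, and Hras, Krt14 and Tgfbr1 are not analysed here.

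As background, TGF-β1 binds paired receptor kinases that phosphorylate SMAD2 and SMAD3. These join SMAD4 and act on genes in the nucleus, while SMAD7 and SKIL, induced by the same signal, restrain it. In keratinocytes the pathway is known for halting the cell cycle and for raising matrix and adhesion genes. An oncogenic Ras protein keeps the MAP kinase cascade active, and the combination of both signals is widely studied in the progression of skin tumours.

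The 6 arrays differed in quality. The standard deviation (SD) over all features was 1.81 on replicate 1 and 1.19 on replicate 3, against 0.412 to 0.669 on the other arrays, and 275 and 95 features lay beyond 5 in size on these wide arrays. Arrays were therefore weighted by their precision. Replicate 2, the narrowest array, held 51.1% of the weight of the group, replicate 5 held 20.1%, and replicates 1 and 3 held 1.69% and 4.56%. For this reason medians over the 6 arrays, which count every array equally, are given before each weighted value. Over all features, replicates 6 and 7 correlated with each other at 0.565 (Pearson's r), replicates 2 and 5 at 0.259, and other pairs at 0.0425 to 0.238. The labels do not say which arrays hold RNA of separate cultures. The p-values rest on the spread between arrays within groups, pooled over the 8 groups of the fit and not over these 6 arrays alone. That spread may be partly technical.

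Of 8905 features, 6795 of them named genes and the rest probes without a single gene name, 560 passed limma's moderated test against 0 at a Benjamini-Hochberg adjusted p under 0.05. They were 6.29% of the features, 292 of them higher in treated cells (3.28%) and 268 lower (3.01%), with 1905 features at an unadjusted p under 0.05. The same sign on all 6 arrays was held by 278 of the called features (3.12%), 147 higher (1.65%) and 131 lower (1.47%). The calls hold more unchanged features than the threshold states, by a test on simulated arrays of the same spread, so the sign on every array is given beside the p-value of single genes. The size of the response was modest, with 40 of those 278 features at a median beyond 1 in size. The count of calls ran from 80 to 1025 over the alternatives, and the share of calls that were higher, 52.1% here, was 37.2% with equal weights for all arrays, 29.8% with arrays scaled to the same spread and 64.7% with the dye-reversed array added as deposited. A core of 32 features, 21 higher and 11 lower, passed with the same direction in all 19 gene-level settings. The 28 named genes of the core were Ctla2a, Ctla2b, Mtg2, Usp18, Lgals9, Oasl2, Col18a1, Cpe, Sparc, Cldn4, Mllt11, Hs1bp3, Col4a2, Ttc3, Lgmn, Psme1, Mcrip1, Krtcap2 and Lztr1 among those that rose, and Gjb6, Il1f5, Kif20a, Fabp5, Ly6d, Cenpe, Fam162a, Tubb4b and Spag5 among those that fell. Among the settings, 1 adds the dye-reversed array as deposited, where a true response may have the opposite sign. Gjb2 and Krt8 lost their calls in that setting only (adjusted p = 0.109 and 0.0841, limma), so the core leaves them out. The core was assembled after the values were seen.

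**Figure D1:**
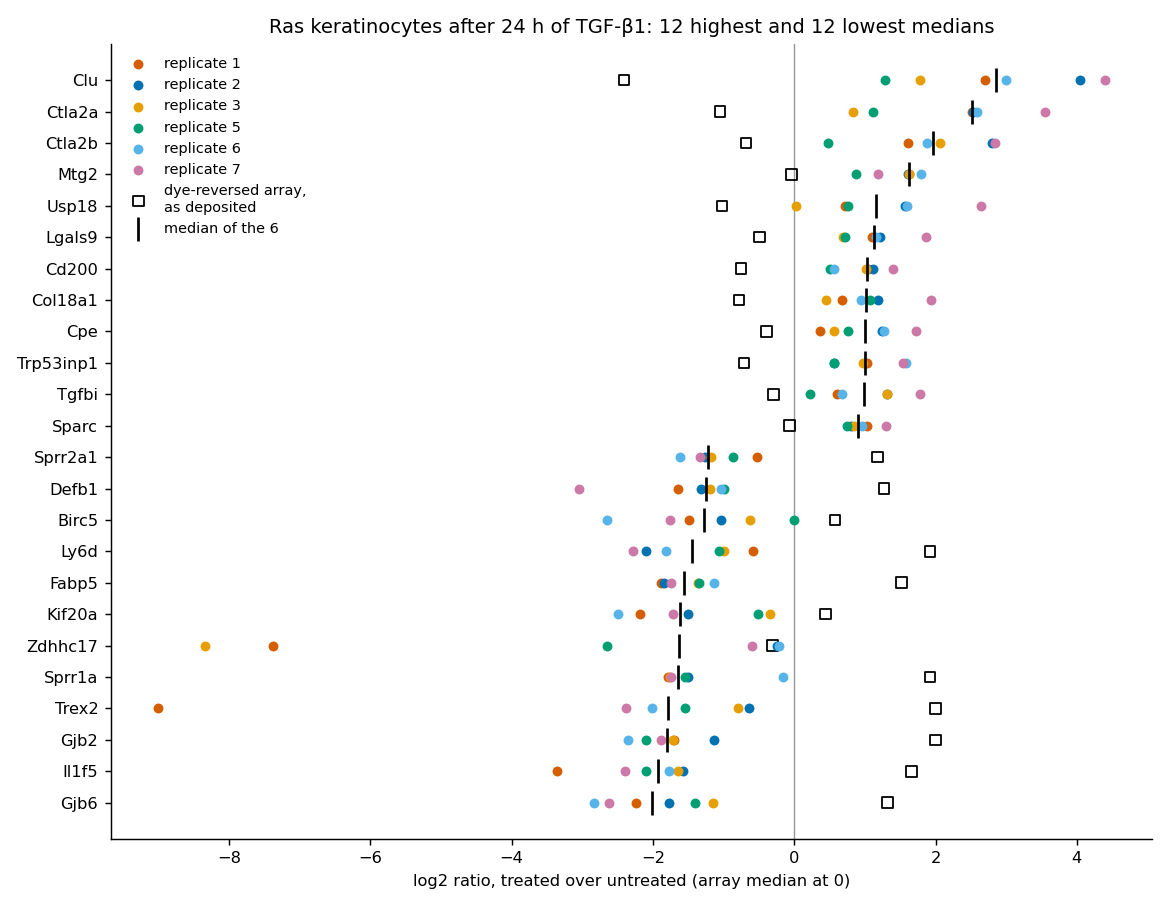
Log2 ratios (x axis, treated over untreated) of the 12 called genes with the highest and the 12 with the lowest medians, each with 1 sign on all 6 arrays; dots are arrays, black ticks medians and open squares the dye-reversed array as deposited. Clu has the highest median, 2.85, Gjb6 the lowest, -2.01, and single arrays reach -9.00 for Trex2 and -8.34 for Zdhhc17.

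Clu had the highest median of the named genes that qualified. It encodes clusterin, a secreted chaperone. Its log2 ratio ran from 1.29 on replicate 5 through a median of 2.85 to 4.40 on replicate 7, so every array was clearly above 0. The median is a 7.2-fold increase, and the weighted mean was 3.26 (SE 0.33, adjusted p = 7.82e-09, limma, n = 6). The call was lost in 1 alternative, with a robust variance trend (adjusted p = 0.243), and held in the other 18. That trend followed each gene's mean absolute log2 ratio, so it depends on the size of the responses themselves.

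Ctla2a and Ctla2b followed. They are closely similar genes, with 1 gene between them, for small secreted proteins that resemble the propeptide of cysteine proteases and inhibit cathepsins. Ctla2a ran from 0.83 through a median of 2.52 to 3.55 and Ctla2b from 0.48 through 1.97 to 2.84. These medians are 5.74-fold and 3.91-fold increases. Replicates 3 and 5 were the low arrays for Ctla2a and replicate 5 for Ctla2b, and no array was below 0. The weighted means were 2.27 (SE 0.20, adjusted p = 3.37e-10) for Ctla2a and 2.16 (SE 0.23, adjusted p = 2.27e-08) for Ctla2b. Whether the spots of these paralogs each bind RNA of both genes was not tested, so the pair should be read as 1 observation.

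The promoter windows of both genes are shown because the genes moved together and the sequence of the windows is almost shared. The 300-base RefSeq windows of build GRCm38.p6 (250 bases before to 50 after the start used for the gene) aligned over 278 bases with 255 identical (91.7%). Of the 6795 named genes, 5377 matched the promoter table. The 250 bases upstream of each start are printed 5′ to 3′ on the gene's own strand, the minus strand of chromosome 13, chr13:60936626-60936875 for Ctla2a and chr13:60897448-60897697 for Ctla2b. The annotated Ctla2b gene reaches base 60897934 on this strand, so its printed window lies inside the gene, not upstream of that end. Capitals mark the letters of the AP-1 motif, TGANTCA, searched on both strands.
Ctla2a: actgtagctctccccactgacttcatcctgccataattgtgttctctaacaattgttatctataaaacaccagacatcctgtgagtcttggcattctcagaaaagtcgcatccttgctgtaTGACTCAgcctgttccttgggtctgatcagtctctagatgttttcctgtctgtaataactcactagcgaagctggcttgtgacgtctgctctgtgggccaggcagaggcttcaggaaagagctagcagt
Ctla2b: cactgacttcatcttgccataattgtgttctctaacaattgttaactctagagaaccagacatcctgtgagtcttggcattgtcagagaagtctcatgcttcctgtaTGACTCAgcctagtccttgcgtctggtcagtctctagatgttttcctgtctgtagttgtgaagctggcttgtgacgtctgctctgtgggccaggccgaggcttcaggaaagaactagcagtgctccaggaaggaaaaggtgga
Both hold 1 match, first base 129 and 143 bases before the start, as do 7.93% of the 27025 promoters in the table (1 per gene, 300 bases each, any number of matches). A match describes these letters and does not show binding.

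Mtg2, a GTPase of the mitochondrial ribosome, was the next gene by median, with a narrower range than Clu or the Ctla2 pair. It ran from 0.87 through 1.62 to 1.79, with 5 of the 6 arrays above 1. The weighted mean was 1.44 (SE 0.14, adjusted p = 1.43e-09, limma), and its call held in every alternative. Unlike Clu and the Ctla2 pair it stood at -0.04 on the dye-reversed array, so the increase was seen in one dye orientation only. A dye effect on this spot was not tested. The gene's medians in the other Balb/c Cy5 groups, with the same dye orientation, lay between -0.15 and 0.25.

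The other genes among the 12 highest medians were Usp18, Lgals9, Cd200, Col18a1, Cpe, Trp53inp1, Tgfbi and Sparc, with medians of 1.16 down to 0.90. Lgals9 encodes galectin 9, a β-galactoside-binding lectin, and Cd200 a surface glycoprotein that restrains myeloid cells. Cpe encodes carboxypeptidase E, which trims prohormones. Lgals9 ran from 0.69 to 1.86 and Cpe from 0.37 to 1.72, with all arrays above 0, and both belong to the core.

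Among genes that fell, Gjb6 had the lowest median, followed by Il1f5, described with the differentiation genes, and Gjb2. Gjb6 and Gjb2 encode connexins 30 and 26, subunits of the gap junctions that join keratinocytes. Their genes are neighbours, with 1 predicted gene between them. Gjb6 ran from -2.84 through a median of -2.01 to -1.15 and Gjb2 from -2.35 through -1.80 to -1.13, so the weakest array of each was still past a halving. The medians are 4.02-fold and 3.47-fold decreases. The weighted means were -1.90 (SE 0.31, adjusted p = 7.9e-05) for Gjb6 and -1.59 (SE 0.26, adjusted p = 5.82e-05) for Gjb2, and on the dye-reversed array both had the opposite sign, 1.32 and 2.0.

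The list of keratins, desmosomes and epithelial junctions, which holds both connexins, was mixed. Of 34 measured members 4 rose and 3 fell (11.8% and 8.82%, beside 3.28% and 3.01% of all features), and their median was 0.01. Krt23, a type I keratin, fell with Gjb2 and Gjb6, at a median of -0.98. Krt8, a keratin of simple epithelia that adult epidermis largely lacks, ran from 0.55 through 0.89 to 2.07 (weighted mean 1.12, SE 0.22, adjusted p = 0.000926, limma). Replicates 6 and 7 were the high arrays, 1.92 and 2.07, and the others lay at 0.55 to 0.90. Cldn4, a tight junction claudin, rose at a median of 0.77, Itgb4, the β4 integrin of hemidesmosomes, at 0.54 and Epcam, an epithelial adhesion molecule, at 0.50.

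Of 5 basal keratinocyte genes measured, 4 stood near 0 and Itgb4 rose, above 0 on every array (weighted mean 0.55, SE 0.14, adjusted p = 0.0136, limma). Krt5, the main basal keratin with Krt14, had a median of 0.04 (-0.17 to 0.26), Trp63, the transcription factor of stratified epithelia, -0.00 (-0.52 to 0.40), Krt15 -0.13 (-0.44 to 0.70) and Itga6, the partner of Itgb4, 0.01 (-0.35 to 0.96). None of those 4 passed the test, and the sign of the weighted mean turned in at least 1 alternative for Krt15, Trp63 and Itga6. Krt10, the keratin of suprabasal cells, also stood near 0, with a median of 0.01 and arrays from -0.86 to 1.31 (adjusted p = 0.818).

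Genes of the cornified envelope and of terminal differentiation that passed the test all fell. Of 22 measured members 9 fell and 0 rose (40.9%, beside 3.01% of all features). Of the 9, 6 were below 0 on every array. Medians were below 0 for 18 of 22 members, and the list's median was -0.52, beside 0.00 over all features. In RNA from a whole culture, fewer differentiated cells and less RNA per cell cannot be told apart. Sprr1a, a cross-linked precursor of the envelope, ran from -1.78 through -1.65 to -0.16, with replicate 6 alone near 0 and the other arrays at -1.51 or lower. Fabp5, the epidermal fatty acid binding protein, was even, from -1.88 through -1.56 to -1.14, and Sprr2a1 ran from -1.62 through -1.22 to -0.53. Il1f5, the epidermal antagonist of the interleukin 36 receptor, ran from -3.36 through -1.93 to -1.57. The weighted means were -1.62 (SE 0.20, adjusted p = 4.94e-07) for Fabp5, -1.82 (SE 0.22, adjusted p = 4.94e-07) for Il1f5 and -1.38 (SE 0.19, adjusted p = 7.27e-06) for Sprr1a, by limma.

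Other members of the list followed the same direction at smaller size. Klk7, a kallikrein that sheds corneocytes, fell at a median of -0.83, Ppl, the plakin of the envelope, at -0.99 and S100a9, a calcium-binding alarmin, at -1.04. S100a9 was at -0.91 to -1.06 on 5 arrays and -1.54 on replicate 5, where Ppl was at 0.03. S100a8, its partner, was called from a weighted mean of -0.93, but its arrays ran from -1.52 on replicate 2 to 0.23 on replicate 7. The loricrin and filaggrin genes, Lor and Flg, which mark the last step of differentiation, were not called, at medians of 0.11 and -0.34. The count of 9 ranged from 4 to 10 over the alternatives, and stayed at 9 without replicates 1 and 3.

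Several epidermal genes outside that list were among the 12 lowest medians. Ly6d, a surface antigen of stratified epithelium, ran from -2.28 through -1.44 to -0.59 (weighted mean -1.79, SE 0.21, adjusted p = 1.49e-07). Trex2, a DNA exonuclease of differentiating keratinocytes, had a median of -1.78 with replicate 1 at -9.00 and the other arrays at -0.64 to -2.38. Defb1, a β-defensin, had a median of -1.25, and replicate 7 lay apart at -3.05. Zdhhc17, a palmitoyltransferase, was the most uneven of these, since replicates 1 and 3 were at -7.38 and -8.34 while replicates 2, 6 and 7 were at -0.21 to -0.60. Its call was lost in 11 of 19 alternatives.

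**Figure D2:**
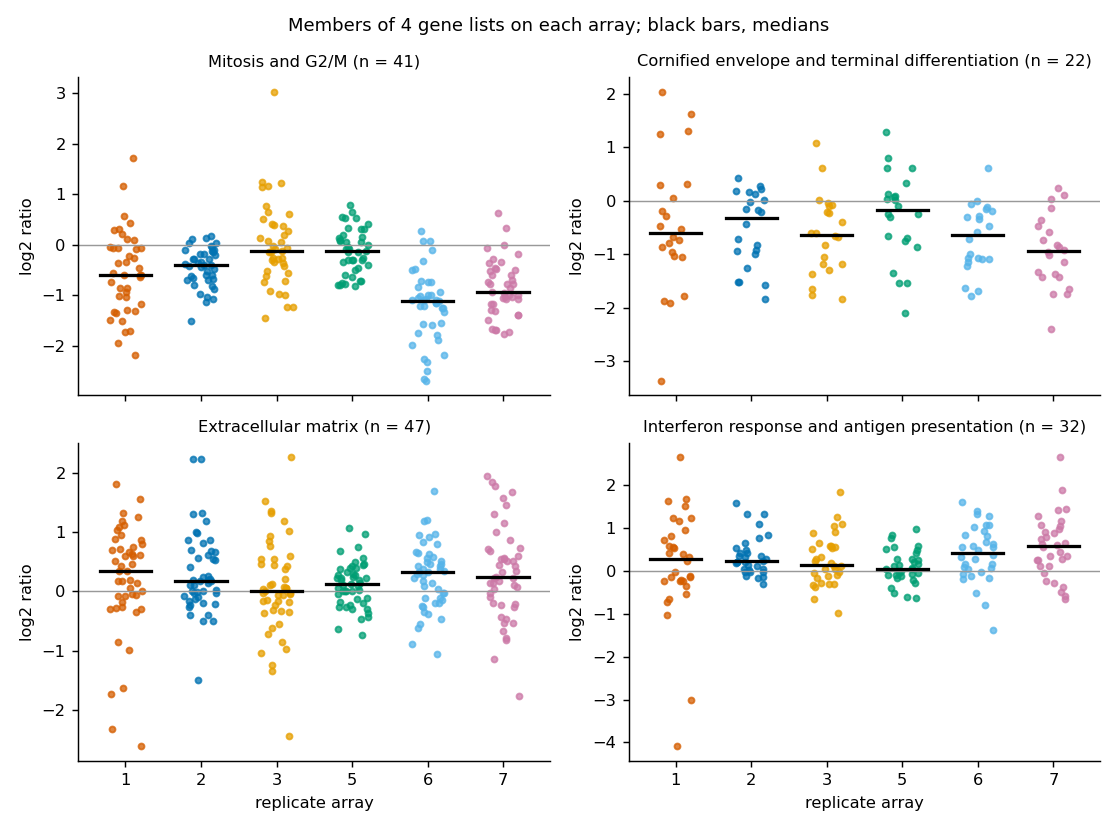
Log2 ratios (y axis) of all measured members of 4 gene lists on each replicate array (x axis), with black bars at the median of the list. Mitotic genes are lowest on replicates 6 and 7, with medians of -1.11 and -0.93, and near 0 on replicates 3 and 5, with -0.13 and -0.12.

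Mitotic genes that passed the test all fell, unevenly between arrays. Of 41 measured members of the list of mitosis and G2/M genes, 18 fell and 0 rose (43.9%, beside 3.01% of all features). Of the 18, 10 were below 0 on every array. Medians were below 0 for 39 of 41 members, and the list's median was -0.50. Kif20a, a kinesin of the cleavage furrow, ran from -2.50 through -1.61 to -0.34 (weighted mean -1.41, SE 0.20, adjusted p = 1.1e-05). Birc5, which encodes survivin of the chromosomal passenger complex, ran from -2.65 through -1.27 to -0.01, Cenpa, the centromeric histone H3, from -2.69 through -1.15 to -0.42, and Top2a, topoisomerase IIα, from -2.18 through -1.0 to -0.07. Replicate 6 was the lowest array for each of these 4 genes, and replicate 3 or 5 the highest. Cenpe, a kinetochore kinesin, was steadier, from -1.36 through -0.91 to -0.13 (adjusted p = 7.27e-06, limma).

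The unevenness affects the count. Without replicates 6 and 7 the mitotic count was 6 of 41, and with the 6 arrays alone in the fit it was 4. It was 26 without replicate 2, 28 without replicate 5 and 18 without replicates 1 and 3. Genes of DNA replication and S phase gave a smaller share: 6 of 39 fell and 0 rose (15.4%, beside 3.01% of all features), with a list median of -0.25. They were Mcm5 of the replicative helicase, Gmnn, the licensing inhibitor geminin, Prim1, a primase subunit, Rrm1 and Rrm2 of ribonucleotide reductase, and Tyms, thymidylate synthase. Of these 6, 4 were below 0 on every array, while Prim1 was at 1.09 and Rrm1 at 0.22 on replicate 1. Gmnn ran from -1.18 through -0.74 to -0.25 and Tyms from -1.15 through -0.66 to -0.39, below 0 on every array. The count of 6 was 0 with the 6 arrays alone, 3 without replicates 6 and 7, 14 without replicate 5 and 16 without replicate 2.

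Of 27 measured regulators of the cell cycle 3 rose and 0 fell (11.1% higher, beside 3.28% of all features): Cdkn2b, which encodes the CDK inhibitor p15, Ccnd1, cyclin D1, and Gadd45a, a stress-induced growth arrest gene. Cdkn2b ran from -0.43 on replicate 3 through 0.59 to 2.02 on replicate 7, with replicates 6 and 7 again the most changed. Gadd45a was also highest on replicates 6 and 7, 2.21 and 1.87, against -0.57 to 0.86 elsewhere. Cdkn1a, which encodes p21, was not called, at a median of 0.37 (adjusted p = 0.211). The count of 3 was 1 without replicates 6 and 7 and 0 with the 6 arrays alone, and the call of Ccnd1 was lost without replicate 2 or replicate 5.

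Promoters of mitotic genes are shown because such genes share a known pair of elements, the CHR, TTTGAA, and the CCAAT box, which bind cell cycle repressor and activator complexes. Both were searched on both strands of the 300-base windows. A CHR and a CCAAT box can share a letter, and none did in the promoters printed here. Of the 18 mitotic genes that fell, 16 had a promoter in the table. A CHR was present in 10 of them (62.5%, against 18.1% of all promoters), a CCAAT box in 10 (62.5%, against 37.9%), and both in 8 (50%, against 7.12%). Of the 6 S phase genes that fell, 5 had a promoter, of which 0 held a CHR and 4 a CCAAT box. The 250 bases upstream of Top2a (chr11:99024190-99024439, minus strand), Cdk1 (chr10:69352913-69353162, minus strand) and Kif11 (chr19:37376132-37376381, plus strand) are printed 5′ to 3′ on the gene's strand in build GRCm38.p6, with both motifs in capitals. The annotated Top2a gene reaches base 99024199, so the last bases printed for it lie inside the gene. Cdk1 and Kif11 were picked for their motifs.
Top2a: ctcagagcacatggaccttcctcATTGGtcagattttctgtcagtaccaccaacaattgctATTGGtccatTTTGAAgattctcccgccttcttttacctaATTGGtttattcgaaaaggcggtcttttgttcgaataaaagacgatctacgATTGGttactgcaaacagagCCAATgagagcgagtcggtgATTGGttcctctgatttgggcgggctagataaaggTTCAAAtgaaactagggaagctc
Cdk1: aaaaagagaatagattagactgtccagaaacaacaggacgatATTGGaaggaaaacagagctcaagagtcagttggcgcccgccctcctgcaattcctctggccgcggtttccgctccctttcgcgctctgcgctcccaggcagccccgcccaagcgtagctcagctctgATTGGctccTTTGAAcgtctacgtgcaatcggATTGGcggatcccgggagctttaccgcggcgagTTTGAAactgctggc
Kif11: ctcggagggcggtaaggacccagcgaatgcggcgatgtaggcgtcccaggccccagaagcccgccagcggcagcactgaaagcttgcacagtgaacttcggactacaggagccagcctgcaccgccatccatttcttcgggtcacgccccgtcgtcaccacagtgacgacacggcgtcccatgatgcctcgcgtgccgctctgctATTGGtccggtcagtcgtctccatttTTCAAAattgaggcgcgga
In these stretches Top2a had 2 CHR and 6 CCAAT matches, Cdk1 had 2 and 3, and Kif11 had 1 of each, with the last CHR 23, 15 and 19 bases before the start. The medians of Cdk1, the mitotic kinase, and Kif11, a spindle kinesin, were -0.99 and -0.79, with Cdk1 at 0.27 on replicate 3. The shares describe promoters of genes chosen by their fall and say nothing on which factor acted.

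A few interferon-response genes rose. Of 32 measured members of the list of interferon response and antigen presentation, 5 rose, 3 of them with 1 sign on all arrays, and 0 fell (15.6% higher, beside 3.28% of all features), 25 of 32 medians were above 0, and the list's median was 0.19. Usp18, the protease that removes ISG15 and dampens the interferon receptor, ran from 0.03 on replicate 3 through 1.16 to 2.64 on replicate 7 (weighted mean 1.43, SE 0.20, adjusted p = 1.1e-05). Psme1, an activator subunit of the proteasome, ran from 0.23 through 0.63 to 1.31 (weighted mean 0.79, SE 0.12, adjusted p = 1.38e-05). Oas1a, an antiviral oligoadenylate synthase, ran from 0.25 through 0.51 to 1.16, and all 3 genes were above 0 on every array. Oasl2, a relative of Oas1a, and B2m, the light chain of MHC class I, rose too, at medians of 1.02 and 0.56, with Oasl2 at -0.06 on replicate 3 and B2m at -0.23 and -0.18 on replicates 1 and 3. The count ranged from 3 to 11 over the alternatives.

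B2m and Oas1a are shown because they hold the interferon-stimulated response element, ISRE, searched on both strands as GAAA, any 2 bases and GAAA again. It was in 3 of the 4 called genes with a promoter in the table (Oas1a, Psme1 and B2m) and in 3.49% of all promoters. The 250 bases upstream are given 5′ to 3′ on the gene's strand, from chr2:122147437-122147686 (plus strand) for B2m and chr5:120907526-120907775 (minus strand) for Oas1a, build GRCm38.p6, with the ISRE letters in capitals. The matches in Oas1a overlap. The annotated Oas1a gene reaches base 120907544, so the last bases printed for it lie inside the gene.
B2m: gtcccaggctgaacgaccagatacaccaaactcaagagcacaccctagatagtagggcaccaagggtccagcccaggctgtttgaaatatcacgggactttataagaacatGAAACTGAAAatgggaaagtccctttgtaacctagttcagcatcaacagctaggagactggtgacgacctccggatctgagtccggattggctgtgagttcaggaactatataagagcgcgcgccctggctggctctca
Oas1a: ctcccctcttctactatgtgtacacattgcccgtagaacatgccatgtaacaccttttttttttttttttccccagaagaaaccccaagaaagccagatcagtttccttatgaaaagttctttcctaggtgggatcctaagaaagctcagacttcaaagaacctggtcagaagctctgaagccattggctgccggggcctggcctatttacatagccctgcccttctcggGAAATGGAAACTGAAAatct
These are descriptions of the upstream letters of genes that rose, and the count of 4 promoters is small.

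Components of the TGF-β pathway itself were nearly level at 24 h. Of 29 measured ligands, receptors, SMADs and modulators, 1 rose (3.45%, beside 3.28% of all features), 0 fell and the median was 0.02. The one called gene was Bmp1, a metalloprotease that processes procollagens and latent TGF-β complexes, which ran from 0.24 through 0.69 to 1.31 (weighted mean 0.50, SE 0.12, adjusted p = 0.00966). The ligand Tgfb1 had a median of -0.08 (-0.33 to 1.07), the receptor Tgfbr2 0.14 (-0.43 to 0.73), Smad2 0.13 (-0.20 to 0.70), Smad3 -0.05 (-0.78 to 2.07) and Smad4 0.14 (-0.47 to 0.60). None of these passed the test. The feedback genes Smad7 and Skil, at 0.07 and 0.03 here, were not called and had arrays on both sides of 0, from -0.57 to 0.55 and from -0.77 to 1.31.

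Of 32 measured known targets of the pathway, 10 rose and 1 fell (31.2% and 3.12%, beside 3.28% and 3.01% of all features), with a list median of 0.11. Of the 10, 5 were above 0 on every array. Tgfbi, a secreted matrix protein named for its induction by TGF-β, ran from 0.22 through 0.99 to 1.78, above 0 on every array, with a weighted mean of 1.04 (SE 0.29, adjusted p = 0.0217). Mmp2, a gelatinase, had a median of 0.72 with replicate 5 at 0.02 and the other arrays at 0.61 to 0.96, and Snai2, a repressor of epithelial genes, a median of 0.69 (0.14 to 1.23). Klf10, an early SMAD target, was the one that fell, at a median of -0.52 (-0.98 to -0.06). Its call was lost in 8 of 19 alternatives (highest adjusted p = 0.173, limma). Id1, which TGF-β lowers in epithelial cells, was not called, at a median of -0.93 and an adjusted p of 0.0568. The count of 10 was 4 without replicate 2, 5 without replicates 6 and 7, and 0 with the 6 arrays alone. The call of Tgfbi was lost in 8 of 19 alternatives, among them without replicate 2 (adjusted p = 0.0995) and with equal weights (0.101), with a highest adjusted p of 0.306 without replicates 1 and 3 and no weights.

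Of 47 measured genes of the extracellular matrix, 12 rose and 0 fell (25.5%, beside 3.28% of all features), and the list's median was 0.19. Of the 12, 8 were above 0 on every array. Sparc, a collagen-binding matricellular protein, was even across arrays, from 0.75 through 0.90 to 1.30 (weighted mean 0.87, SE 0.16, adjusted p = 0.000478). Col18a1, the basement membrane collagen that holds endostatin, ran from 0.45 through 1.01 to 1.94 (weighted mean 1.16, SE 0.18, adjusted p = 4.02e-05). Col4a2, a chain of basement membrane collagen IV, ran from 0.60 through 0.66 to 1.57, and the laminin chain gene Lamb1 from 0.05 through 0.70 to 1.20. Serpinh1, the collagen chaperone, rose at a median of 0.54. These 5 genes were above 0 on all arrays. The matrix count was 3 with the 6 arrays alone, 9 without replicate 2 and 8 without replicates 6 and 7.

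The fibrillar collagen calls rest on replicate 2. Col1a1 and Col1a2 were at 2.23 there, and at -0.33 to 0.43 and 0.12 to 0.63 on the other 5 arrays. They are the 2 called members of the list of 13 measured fibroblast markers (15.4%, beside 3.28% of all features higher), whose median was -0.11. Other fibroblast genes, such as Dcn, Pdgfrb and Thy1, were not called, at medians of 0.19, -0.11 and -0.39. The call of Col1a2 was lost without replicate 2 (adjusted p = 0.325). Timp1, an inhibitor of metalloproteases, had the same form, at 1.44 on replicate 2 and 0.02 to 0.30 elsewhere. The median of all fibroblast markers on replicate 2 was -0.19, the lowest of the 6 arrays, where it reached 0.31. Their part in the collagen calls was not tested.

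Among proteases and their inhibitors 7 of 40 rose and 2 fell (17.5% and 5%, beside 3.28% and 3.01% of all features), with a median of 0.20. Beside the Ctla2 pair, Plau, the urokinase gene, rose at a median of 0.72 (0.11 to 1.87), Serpinf1, an antiangiogenic serpin, at 0.66 (0.30 to 1.50) and Mmp14, the membrane metalloprotease that activates Mmp2, at 0.64. Mmp14 was below 0 on replicate 3 (-0.27). Serpinb2, an inhibitor of urokinase, fell at a median of -0.59 (-0.86 to -0.02), opposite to its target Plau. The call of Plau was lost in 8 of 19 alternatives, among them without replicate 1, 6 or 7 alone (adjusted p = 0.0659, 0.145 and 0.173), and its highest adjusted p was 0.51, with the reversed array added as deposited.

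Of 37 measured integrin, focal adhesion and actin genes, 4 rose (10.8%, beside 3.28% of all features) and 0 fell, with a list median of 0.10: Itgb4, Gsn, which severs actin filaments, Vasp, an elongation factor, and Cttn, cortactin. Their medians lay between 0.37 and 0.54, and all 4 were above 0 on every array. The count ranged from 0 to 6 over the alternatives, with 0 for the 6 arrays alone and 2 without replicates 6 and 7, and the calls of Itgb4, Gsn and Vasp were each lost without replicate 2 and without replicate 5. Mesenchymal markers gave 3 of 18 raised (16.7%), Snai2, Sparc and Mmp2, while the median of the list was -0.07 and the median of its weighted means 0.10, of opposite sign. Acta2, the smooth muscle actin used as a mark of myofibroblasts, was not called, at a median of -0.07 (-0.27 to 0.54).

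**Figure D3:**
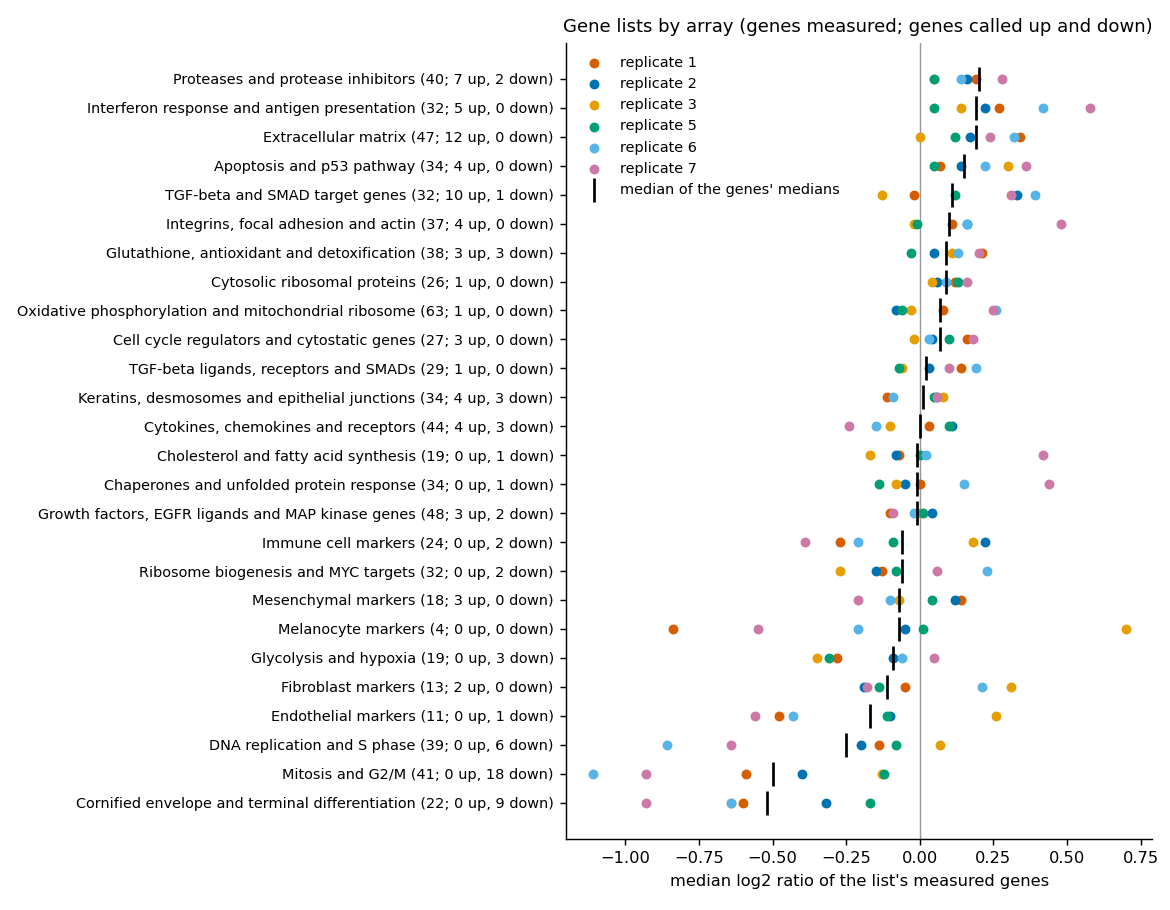
Median log2 ratio (x axis) of the measured genes of each of 26 lists (y axis, with the number measured, called up and called down); dots are arrays and black ticks the median of the genes' medians. Cornified envelope and mitotic genes lie lowest, at -0.52 and -0.50, and no list's median is above 0.20.

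In the p53 and apoptosis list 4 of 34 rose (11.8%, beside 3.28% of all features) and 0 fell. The 4 were Clu, Trp53inp1, a p53 target of autophagy and cell death, Gadd45a and Mdm2, the ligase that degrades p53. The count of genes that rose ranged from 1 to 7 over the alternatives. Trp53inp1 ran from 0.56 through 1.00 to 1.58. Mdm2 had a median of 0.44, with replicates 1 and 3 below 0. The antioxidant list gave 3 up and 3 down of 38 (7.89% each, beside 3.28% and 3.01% of all features). These counts ranged from 0 to 6 and from 0 to 4 over the alternatives. The metallothioneins Mt1 and Mt2 were called up, at medians of 1.17 and 1.02. The arrays of Mt1 ran from -0.42 to 2.12 and those of Mt2 from -0.10 to 2.51, replicates 2, 6 and 7 being high in both. Prdx2, a peroxiredoxin, rose at 0.41 with all arrays above 0. The glutathione transferases Gsta2 and Gsta4 and the glutaredoxin Glrx fell, none with 1 sign on all arrays.

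Of 44 cytokine and chemokine genes 4 rose and 3 fell (9.09% and 6.82%, beside 3.28% and 3.01% of all features). Il33, an alarmin of epithelial nuclei, fell, from -1.45 through -1.16 to -0.28 (adjusted p = 0.000624), as did Il1f5 and Csf3, the granulocyte growth factor. Ccl2, Ccl3, Ccl7 and Cxcl10, all chemoattractants of leukocytes, were called up, none with 1 sign on all arrays. Ccl3 was at 6.60 on replicate 2 and between -0.51 and 1.88 on the others. Of 48 growth factor and MAP kinase genes 3 rose and 2 fell, shares of 6.25% and 4.17% that are near those of all features. Igfbp2, which binds insulin-like growth factors, fell at a median of -0.79, and Vegfb, a member of the VEGF family, rose at 0.67. Dusp6, the phosphatase that tracks ERK activity, was called up with replicates 3 and 6 below 0.

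Several housekeeping lists held 1 call each, where 3.28% of all features were called higher and 3.01% lower. Cytosolic ribosomal protein genes gave 1 of 26 higher (3.85%), Rps13, at a median of 0.31. Oxidative phosphorylation and mitochondrial ribosome genes gave 1 of 63 higher (1.59%). Cholesterol and fatty acid synthesis gave 1 of 19 lower (5.26%), Srebf2, at -0.37, and chaperones 1 of 34 lower (2.94%). In glycolysis and hypoxia 3 of 19 fell (15.8%, beside 3.01% of all features), with 16 of 19 medians below 0 and a list median of -0.09. They were Pgk1, Ldha and Higd1a, with medians of -0.56, -0.38 and -0.37, and only Higd1a was below 0 on all 6 arrays. The count was 0 without replicate 2, without replicate 5 and with the 6 arrays alone. Ribosome biogenesis and MYC targets gave 2 of 32 lower (6.25%), Ldha and Odc1, the ornithine decarboxylase of polyamine synthesis, neither with 1 sign on all arrays. Endothelial markers gave 1 of 11 lower (9.09%), melanocyte markers 0 of 4, and immune markers 2 of 24 lower (8.33%). Those 2 were S100a8 and S100a9, which keratinocytes express too. Ptprc, the pan-leukocyte CD45 gene, was not called, at a median of -0.42 (-2.37 to 0.21).

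The dye-reversed array was narrow (SD 0.26) and was used as deposited. Its sign convention is not given in the sources used here. If its values are Cy5 over Cy3, a true response should have the opposite sign there. That was so for 199 of the 278 features called with 1 sign on the 6 arrays (71.6%) and for 33 of the 40 with a median beyond 1 (82.5%). It was so for 316 of 765 features with 1 sign that were not called (41.3%), and for 46.8% of all 8905. Over all features the array and the median of the 6 correlated at -0.0405. Among the largest responses Clu was at -2.41, Gjb2 and Trex2 at 2.0, Sprr1a and Ly6d at 1.92 and Il1f5 at 1.66. Mtg2 (-0.04), Sparc (-0.07) and Slc18b1, a vesicular amine transporter (-0.07), were near 0, and Zdhhc17 (-0.31) and Rogdi (-1.58, against a median of -1.02) had the same sign as on the 6 arrays. Slc18b1 and Rogdi were picked after their values were seen.

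**Figure D4:**
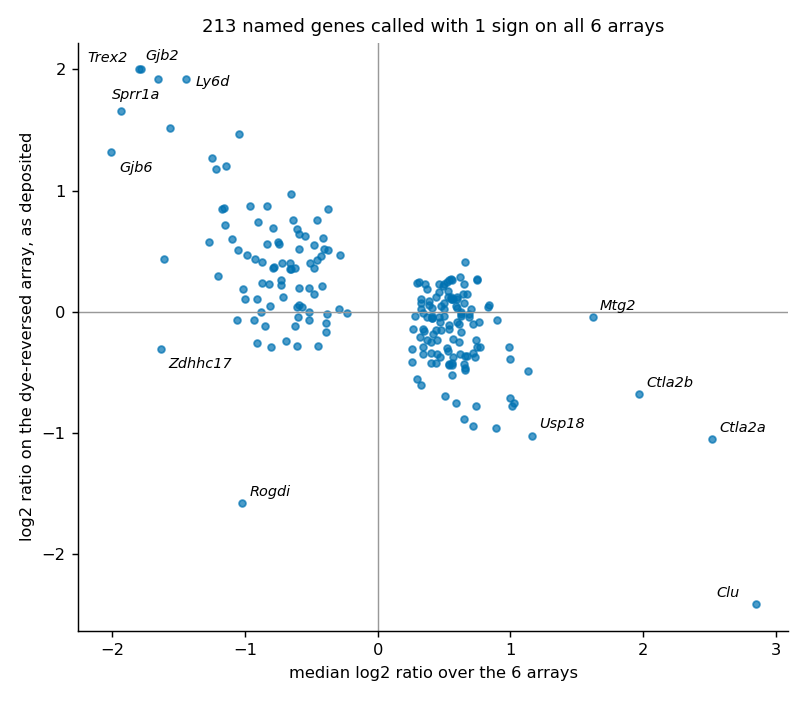
Log2 ratio on the dye-reversed array as deposited (y axis) against the median log2 ratio over the 6 arrays (x axis) for named genes called with 1 sign on all 6 arrays; each dot is a gene. Most of the genes with large medians lie in the upper left and lower right, with Mtg2 near 0 and Rogdi in the lower left.

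Ras and primary keratinocytes were compared at the same time to ask where the oncogene-bearing cells responded differently. The 3 comparisons that follow share the ras arrays at 24 h, so they are not independent. The difference between responses, ras minus primary, passed at an adjusted p under 0.05 for 136 of 8905 features (1.53%), 106 higher (1.19%) and 30 lower (0.337%) in ras cells, and for 5 of them (0.0561%) the arrays of both groups did not overlap. Over all features, called or not, the arrays did not overlap for 33 (0.371%). The 136 became 4 with equal weights, 6 with the compared groups alone and 1 with scaled arrays. Most calls of this comparison were thus lost without the weights or the shared spread. F3, which encodes tissue factor, the trigger of coagulation and a SMAD target, ran from -1.45 through -0.38 to -0.25 in ras cells and from 0.30 through 0.80 to 1.15 in primary cells. The ranges lie on opposite sides of 0. The difference was -1.36 (SE 0.29, adjusted p = 0.00827, limma), while the ras response by itself did not pass (adjusted p = 0.19). With equal weights it was -1.33 and lost its call (adjusted p = 0.285).

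The other 4 such genes were Ddr2, Mtg2, Sprr2a1 and Gstm2. Mtg2 differed by 1.36 (SE 0.17, adjusted p = 2.95e-06), with the primary arrays at -0.19 to 0.61. Sprr2a1 fell in both kinds of cell and less in ras cells, where its lowest array was -1.62 and the highest primary array -1.63 (difference 1.12, SE 0.20, adjusted p = 0.00154). Ddr2, a collagen receptor kinase, ran from -3.19 to -0.07 in ras cells and from 0.01 to 0.51 in primary cells (difference -0.64, adjusted p = 0.0261). Gstm2, a glutathione transferase, differed by 0.55 (adjusted p = 0.0342). The calls of Ddr2 and Gstm2 were lost without primary replicate 3 or 4, which left 48 and 58 features called, while those of F3, Mtg2 and Sprr2a1 held without any single primary array. Over the other 19 alternatives F3 lost its call in 4 (highest adjusted p = 0.553), Sprr2a1 in 3 (0.473), Mtg2 in 2 (0.0883), and Ddr2 and Gstm2 in 7 each (0.655 and 0.855).

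Several large responses of ras cells were also called in this difference with overlapping arrays, and these were picked after their values were seen. The primary medians of Ctla2a and Ctla2b were both 0.44, with highest arrays of 0.97 and 0.75, and the differences were 2.02 (adjusted p = 2.95e-06) and 1.82 (adjusted p = 0.000367). The differences of Gjb2 and Gjb6 were -1.38 (adjusted p = 0.015) and -1.43 (adjusted p = 0.0462), but the primary group was split. Primary replicates 5 and 6 were at -3.13 and -1.87 for Gjb2 and at -3.71 and -3.38 for Gjb6, as low as the ras arrays, while the other 4 lay between -0.23 and 0.24 and between -0.47 and -0.13. The same 2 primary arrays were at 2.79 and 1.00 for Mt1 and 3.23 and 1.48 for Mt2, where the other 4 were at -1.65 to -0.95 and -1.62 to -0.71. Primary replicate 5 shares its range of array database ID with ras replicate 6 of 24 h, and primary replicate 6 with ras replicate 7. The labels do not say what the ID marks, and its part in these splits was not tested. Without the 2 primary arrays the differences of Gjb2 and Gjb6 were -1.55 and -1.66. The arrays were picked after their values were seen, so larger differences follow from that choice and are no test of it. With equal weights for all arrays the differences of Gjb2 and Gjb6 were -0.98 and -0.65 (adjusted p = 0.469 and 0.697), and those of Mt1 and Mt2 were 1.25 and 1.11 (adjusted p = 0.451 and 0.477). Without those arrays 243 features were called, all 136 among them. The Ctla2a difference kept its call with equal weights, 1.70 (adjusted p = 0.0235), and that of Ctla2b did not, 1.48 (adjusted p = 0.0654).

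By lists, interferon genes had 4 of 32 members higher in ras than in primary cells (Oasl2, Usp18, Psme1 and B2m) and 0 lower (12.5% higher, beside 1.19% of all features). With equal weights none of these 4 passed (adjusted p = 0.785, 0.553, 0.407 and 0.957). Cytosolic ribosomal proteins had 6 of 26 higher and 0 lower (23.1%), with a median difference of 0.39. The primary list median was -0.26 and the ras one 0.09. With equal weights 3 of 8905 features passed as higher, Ctla2a and Mtg2 among them, so most of these 6 calls were lost. Mitotic genes had 0 higher and 2 of 41 lower, Kif20a and Cenpe (4.88%, beside 0.337% of all features). Their calls held in 10 and 9 of 18 gene-level alternatives, and with equal weights neither passed (adjusted p = 0.489 and 0.511). Krt8 was higher in ras cells by 1.03 (adjusted p = 0.0396), with 1 primary array at 2.10 and the other 5 at 0.24 or lower. The calls of Gjb2, Gjb6, Krt8, Usp18, Oasl2 and Cenpe in this comparison were lost without primary replicate 3 or without replicate 4. Gjb6, Krt8, Oasl2 and Cenpe also lost theirs without replicate 1 (adjusted p = 0.0825, 0.0887, 0.0659 and 0.0808), B2m without replicate 3 (0.0697), and Kif20a without replicate 2 (0.0609) or replicate 4 (0.154). Psme1 kept its call without any single primary array.

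**Figure D5:**
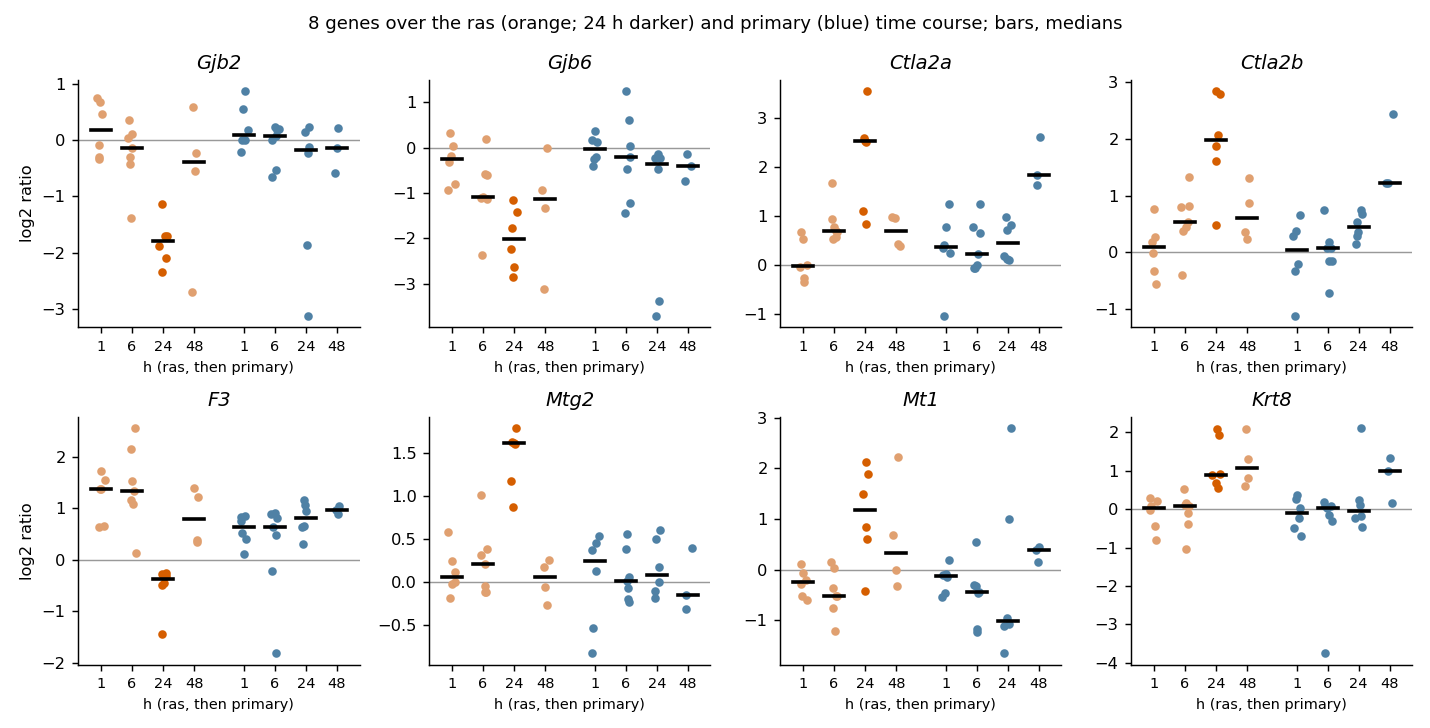
Log2 ratios (y axis) of 8 genes on every Balb/c Cy5 array by hours of TGF-β1 (x axis) in ras (orange) and primary (blue) keratinocytes; dots are arrays and bars medians. Ras cells at 24 h are the one group with F3 below 0 on every array, Mtg2 has medians of -0.15 to 0.25 in the other groups, and Gjb2, Gjb6 and Mt1 each show 2 primary arrays at 24 h apart from the other 4.

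The 24 h response was set against that of ras cells at 6 h to separate late from early genes. It differed for 241 features (2.71%), 94 higher (1.06%) and 147 lower (1.65%) at 24 h, and 25 of these (0.281%) had arrays that did not overlap. Called or not, 39 of all features (0.438%) had such arrays. F3 and Ly6d had the largest decreases among the named genes of the 25 called without overlap. F3 had 6 h arrays at 0.12 to 2.55 and a median of 1.33 (difference -2.13, SE 0.30, adjusted p = 2.32e-05). Ly6d had all 6 h arrays above 0, 0.06 to 0.69, and all 24 h arrays below (difference -2.13, SE 0.26, adjusted p = 2.8e-06). Il1f5 was at -0.37 by median at 6 h and lower by 1.42 more at 24 h (difference -1.42, adjusted p = 0.00306). Rflnb, a refilin that binds filamin, was raised at 6 h, at a median of 1.67, and stood at 0.12 at 24 h (difference -1.46, adjusted p = 0.00121).

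The genes higher at 24 h without overlap were led by Krt8, Abitram, Cst7 and Srm. Krt8 had a median of 0.07 at 6 h (difference 1.15, adjusted p = 0.0177). Abitram was at -0.52 to 0.01 at 6 h and 0.23 to 1.43 at 24 h (difference 1.06, adjusted p = 0.000487). Srm, spermidine synthase, was lowered at 6 h, with arrays at -0.93 to -0.33, and stood at 0.06 at 24 h (difference 0.67, adjusted p = 0.00939), and Cst7, cystatin F, differed by 0.73 (adjusted p = 0.0414).

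Mitotic genes were the list with the most calls in this difference: 10 of 41 were lower at 24 h than at 6 h and 0 higher (24.4%, beside 1.65% of all features lower), and the list's median was 0.06 at 6 h and -0.50 at 24 h. Kif20a differed by -1.54 (adjusted p = 0.000454), a call that held in all 18 gene-level alternatives. Cornified genes had 4 of 22 lower (18.2%) and 0 higher. The feedback gene Skil had a median of 1.24 at 6 h and 0.03 at 24 h (difference -0.88, adjusted p = 0.03). Acta2 was lower at 24 h by 0.87 (difference -0.87, adjusted p = 0.00543), from a median of 0.77 at 6 h. Gjb2 was at -0.14 by median at 6 h (difference -1.50, adjusted p = 0.00786), whereas Gjb6 was already at -1.09 and its difference did not pass (-1.02, adjusted p = 0.164). Ctla2a and Ctla2b, at 0.69 and 0.54 at 6 h, were higher at 24 h by 1.40 and 1.60 (adjusted p = 0.00121 for each). The total of 241 was 73 without 6 h replicate 1, 100 without 6 h replicate 2 and 469 without 6 h replicate 7. F3, Ly6d, Rflnb, Il1f5, Abitram, Srm and Kif20a kept their calls without any single 6 h array, Krt8 lost it without replicate 2 (adjusted p = 0.0597) and Cst7 without replicate 1, 2, 3 or 4 (highest adjusted p = 0.0759).

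Between 24 h and 48 h 1 feature passed the test (0.0112%), with 989 at an unadjusted p under 0.05. It was Mtg2, which had arrays at -0.27 to 0.26 at 48 h (difference, 48 h minus 24 h, -1.43, SE 0.24, adjusted p = 0.00323). The call was lost in 5 alternatives, with adjusted p of 0.1 to 0.271. F3 stood at 0.79 by median at 48 h, with arrays at 0.35 to 1.40, all above the 24 h arrays. Arrays of these 2 groups did not overlap for 144 of all 8905 features (1.62%). The F3 difference of 1.28 did not pass (SE 0.40, adjusted p = 0.288, limma). Gjb2 was at -0.39 by median at 48 h and Gjb6 at -1.13, with replicate 2 low in both, -2.70 and -3.11. The list medians of mitotic and cornified genes at 48 h were -0.55 and -0.76, beside -0.50 and -0.52 at 24 h. With 4 arrays at 48 h the SEs were wider, and a difference that did not pass does not show that the times were alike.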

How the data were processed

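Each sample was a 2-colour spotted array with RNA of untreated cells in channel 1 and of TGF-β1-treated cells in channel 2, per the labels. The deposited values are log2 ratios for 9596 probes without missing values. The log base is not stated, and sizes up to 11.3 would be implausible ratios in base 10. How the arrays were scanned, background-corrected and normalized is not given in the sources used here. Ratios carry no spot intensity, so background could not be read, and precision is limited by how many arrays there are.

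Each array was centred on its median (-0.104 to 0.013 for the 6 arrays before centring). Of the probes, 7486 had 1 gene symbol in the platform annotation, 483 several and 1627 none. Symbols of 7395 were updated by Entrez ID, and probes of the same gene were averaged, which gave 8905 features. Groups came from the sample titles. limma 3.58.1 in R 4.3.3 (arrayWeights, lmFit, eBayes) was fitted to the 45 Balb/c arrays with treated RNA in Cy5, in 8 groups that share an estimate of spread. P-values were adjusted by the Benjamini-Hochberg method over all features, with calls at an adjusted p under 0.05. The fit was tested on simulated data that kept each array's spread: it recovered the direction and size of added changes, but it also called unchanged features more often than the adjusted p states, more so with equal weights, and less often among features with 1 sign on all 6 arrays. Medians and tables used Python 3.11.15 with pandas 2.3.3, figures matplotlib 3.10.9 and promoter alignment Biopython 1.88.

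Alternatives were equal weights, a fit to the compared groups alone, scaled arrays, no centring, the wide arrays left out, the replicate number or the range of the array database ID as a random block, the reversed array added with either sign, single probes, a robust variance trend and each ras 24 h array left out. The variance trend followed each feature's mean absolute log2 ratio, not spot intensity. Leaving out replicates 6 and 7, replicates 1 and 3 with weights kept, and arrays of the comparison groups was chosen after seeing the data. Replicate numbers recur between groups, but the deviations of same-numbered arrays correlated at -0.232 to 0.118, so the numbers were not taken to pair the arrays. Arrays close in database ID can carry different replicate numbers, so this check does not cover pairing by ID.

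Named genes were the 12 highest and 12 lowest medians among called genes with 1 sign on all 6 arrays, up to 4 such genes of largest median per list, Tgfb1, Tgfbr1, Tgfbr2, Smad2, Smad3, Smad4, Smad7, Skil, Hras and keratinocyte markers whatever their values, and, per difference, the 4 largest each way among called genes whose arrays did not overlap. Genes outside this rule were named after their values were seen; in the lists these are members that were called without 1 sign on all arrays and uncalled members given for reference. Of the genes in the rule, Tgfbr1, Hras and the marker Krt14 are not analysed here. The members and the 26 gene lists were chosen with earlier results of these data known. Lists are described by counts and medians, with no set test. Promoters are RefSeq windows of build GRCm38.p6.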

Additional observations from a re-analysis of the deposited data

Results flagged for a closer look

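On 7 named genes 1 of the 6 arrays lay far from the others by Dixon's test, which chance alone meets in about 1 of 20 groups. Trex2 was at -9.00 on replicate 1, Sprr1a at -0.16 on replicate 6, Defb1 at -3.05 on replicate 7, Mmp2 at 0.02 on replicate 5, Srebf2 at -0.62 on replicate 6, Col1a2 at 2.23 on replicate 2 and S100a9 at -1.54 on replicate 5.

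Responses differed between groups by limma's test of the difference for 136 features against primary cells at 24 h, 241 against ras cells at 6 h and 1 between 48 h and 24 h. Against primary cells the genes whose arrays did not overlap were F3 (-1.36), Ddr2 (-0.64), Mtg2 (1.36), Sprr2a1 (1.12) and Gstm2 (0.55). Against 6 h the leading genes were F3 (-2.13), Ly6d (-2.13), Rflnb (-1.46), Il1f5 (-1.42), Krt8 (1.15), Abitram (1.06), Cst7 (0.73) and Srm (0.67). At 48 h minus 24 h it was Mtg2 (-1.43). All are differences on the log2 scale.

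The dye-reversed array, kept out of the response, had the opposite sign for 199 of the 278 features called with 1 sign.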

How the results depend on the processing

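The 560 calls of the response became 939 with equal weights, 80 with the 6 arrays alone, 302 with scaled arrays, 216 without replicates 1 and 3 and no weights, 167 with the reversed array added as deposited and 369 without replicates 6 and 7. Leaving out 1 array gave 511 to 1025. In the same order of settings up to the wide arrays, the 136 differences from primary cells became 4, 6, 1 and 1, and the 241 from 6 h became 21, 130, 13 and 9. Without replicates 6 and 7 they were 76 and 521. Leaving out 1 ras 24 h array gave 137 to 615 and 153 to 657, and leaving out 1 array of the other group 48 to 233 and 73 to 469. Without primary replicates 5 and 6 together the first was 243. The single call between 48 h and 24 h became 0 with the compared groups alone, with scaled arrays, without replicates 1 and 3 and no weights and with the reversed array added with either sign, while limma gave 1003, 725, 440, 1128 and 965 at an unadjusted p under 0.05. It stayed 1 without replicates 1 and 3 with weights kept. It became 2 with single probes, 6 without replicates 6 and 7, 1 to 8 without 1 array of 24 h and 1 to 22 without 1 of 48 h. The causes were not tested.

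With the replicate number as a block (consensus correlation -0.00442) 560 features were called, 558 of them shared. With the range of the array database ID as a block the consensus correlation was larger, 0.12, and 450 features were called, 426 of them shared. For 4 of the called features the weighted mean and the median over the 6 arrays had opposite signs. Among the genes named by rule, the sign of the weighted mean turned between settings for uncalled genes only. Tgfb1 went to 0.08 with equal weights and ran from -0.27 to 0.00 without 1 array. Smad3 went to 0.47, 0.21 and 0.07 with equal weights, scaled arrays and without replicates 6 and 7, and Skil to -0.01 in the last. Krt15 went to -0.05 with equal weights and -0.01 with the reversed array turned, and ran from -0.19 to 0.14 without 1 array. Trp63 went to -0.05 with equal weights and ran from -0.09 to 0.13 without 1 array. Itga6 went to -0.04 without replicates 1 and 3 and ran from -0.11 to 0.10 without 1 array.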

Other observations

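Some of the largest decreases belonged to genes in no list, picked here after their values were seen. Tmem45a, a transmembrane protein gene, was the most even of them, from -1.22 through a median of -1.14 to -1.02 on the 6 arrays (adjusted p = 0.000123, limma), and 1.20 on the dye-reversed array. Nppb, the gene of B-type natriuretic peptide, had a median of -1.05 (-1.55 to -0.36), Aldh3b2, an aldehyde dehydrogenase, -1.10 (-1.56 to -0.39), Nipal1, a magnesium transporter relative, -1.17 (-3.53 to -0.69) and Fam83d, a spindle protein, -1.20 (-2.09 to -0.43).

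Ras keratinocytes of Smad3 wild-type and Smad3 knockout mice were measured at 48 h on 1 array each with treated RNA in Cy5, and the knockout on 1 more with dyes reversed. The difference between genotypes has no replicate check, and a ratio within a genotype does not check the knockout. In the order wild type, then knockout, Ctla2a was at 2.15 and 0.58, Ctla2b at 1.78 and 0.00, Krt8 at 1.75 and -0.20, Il1f5 at -1.11 and 0.05 and Sprr1a at -1.30 and 0.40. On the reversed knockout array, as deposited, these 5 genes were at 0.04, -0.07, -0.11, 0.52 and 0.39. Clu was high on both Cy5 arrays, 2.39 and 1.75, and had the opposite sign on the reversed one, -0.94. Sparc was at -0.22 and -0.21, with 0.92 on the reversed array, and Kif20a at 0.30 and 0.37, with 0.40 there, the same sign in both orientations of the knockout.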
